A study of Homo sapiens with 14 samples.

Results

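The control arrays of A172 and U87-MG, a pair of human glioblastoma cell lines, were set against each other to describe how the lines differ before any gene is silenced. Members were chosen by their labels as the arrays of cells that received a negative control siRNA, which gave 7 of the 14 arrays of the series: A172 control sets 1 to 3 and U87-MG control sets 1 to 4 (named U87 in the labels). Both lines were kept in DMEM with serum, electroporated with 20 pmol/ml of a control siRNA of medium GC content that has no target, and harvested 40 h later by the labels, while the paper's text names a later time. According to the paper each set is an independent biological replicate, so the spread between arrays of a line includes that between cultures. The other 7 arrays, of cells with an siRNA to the long noncoding RNA LINC00152, were used only to see which patterns returned there.

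Glioblastoma is an aggressive tumour of glial character whose cells move through a brain matrix built of hyaluronan, tenascins and other glycoproteins. In culture its cells often take on traits of mesenchymal cells, such as the secretion of collagens and fibronectin, and lose markers of mature astrocytes. HOX genes, which set position along the body axis in the embryo, and cancer-testis antigens, which are otherwise restricted to germ cells, are frequently switched on in such tumours.

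Each array was an Agilent one-colour array, on which the brightness of a printed probe follows the amount of labelled RNA bound to it. It held 58717 spots besides controls, for 50599 probes, and no such spot was saturated. The A172 arrays were brighter. The 75th percentile of the processed signal was 284, 131 and 186 on the 3 A172 arrays and 56.7, 59.0, 33.0 and 69.0 on the 4 U87-MG arrays, with no overlap between the lines. Likewise 69.0%, 57.6% and 64.4% of the spots were well above background in A172, against 46.1%, 47.9%, 35.7% and 48.3% in U87-MG. The A172 arrays lay on 3 slides and all U87-MG arrays on 1 other slide, so the line and the slide cannot be told apart in any value given here. The largest differences, above all of genes measured in one line and not in the other, are therefore described first, and smaller ones of list members are given with their size.

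**Figure D1:**
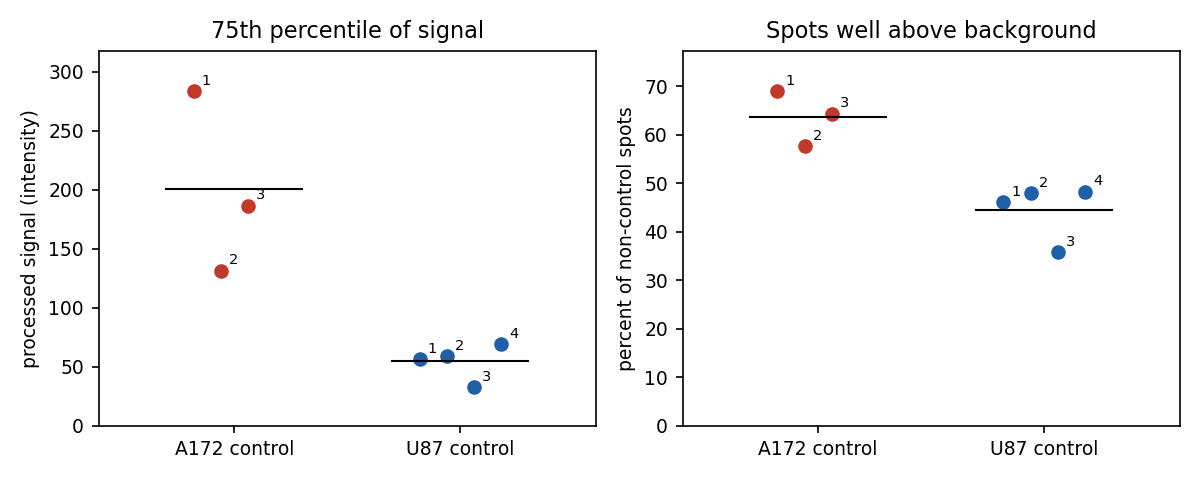
Brightness of the control arrays of A172 (n = 3) and U87-MG (named U87, n = 4): the 75th percentile of the processed signal (left) and the percent of spots well above background (right), each point being 1 array with its replicate number and each line the mean. All A172 arrays lie above all U87-MG arrays in both panels, and replicate 3 of U87-MG is the lowest, at 33.0 and 35.7%.

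Levels are given as the log2 processed signal relative to the array's 75th percentile, so that 0 is the level of that percentile. A probe counts as on in a line when each of its control arrays measured it well above background, and as off when none of them did, and a probe without a usable spot on an array counts as neither. For a gene that was off in one line no fold change exists, only a lower limit: the mean level in the bright line minus the mean, over the arrays of the dim line, of the dimmest signal still well above background or of the probe's own signal, whichever was higher. A difference is called large if this limit was at least 4-fold. For probes that reached this mark on 3 or more arrays of either line, differences (A172 minus U87-MG, log2) were tested with limma, and those with an adjusted p under 0.05 and a size of at least 2 are named as higher in one line. A gene that was off in one line entered this test only through the line where it was bright, so its limit is given as a description, with no p. The difference of a probe that only some arrays of a line measured rests in part on signals not well above background, and for probes named by rule the number of these arrays is given.

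By these rules 3959 of 50599 probes (7.82%) were on in A172 and off in U87-MG (2 more lacked a usable spot on an array), and 84 (0.166%) were on in U87-MG and off in A172. The difference between these numbers went with the brightness of the arrays: for 2504 of the 3959 probes (63.2%) the A172 signal was not above the limit of the dimmer U87-MG arrays, so that no fold can be given, while all 84 probes on in U87-MG were large differences. Only 164 of the 3959 were large (0.324% of all probes). The last A172 probe inside the 4-fold threshold had a log2 limit of 2.00 and the next one outside it 1.99. The smallest limit among the U87-MG probes was 2.17. The counts depended on single arrays: without replicate 2 of A172, 6156 probes were on in A172 alone, without replicate 1 of A172 128 were on in U87-MG alone, and without replicate 3 of U87-MG the latter count was 186, of which 170 were large. They also depended on the processing. With another background correction (normexp, which models background and signal together and here added an offset of 50) 53 and 37 of the large differences remained. The 75th percentiles of the processed signal were 33.0 to 69.0 in U87-MG and 131 to 284 in A172, and the part of the offset was not tested apart. With the same detection floor for all arrays 87 and 26 remained, and with the arrays scaled by their E1A control spots 341 probes were large in A172 and 68 in U87-MG. With a laxer mark of detection (signal positive and significant against background) 163 and 101 probes were large, but only 31 and 10 of them were among the 164 and 84, so which probes count as off depends on the mark used.

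**Figure D2:**
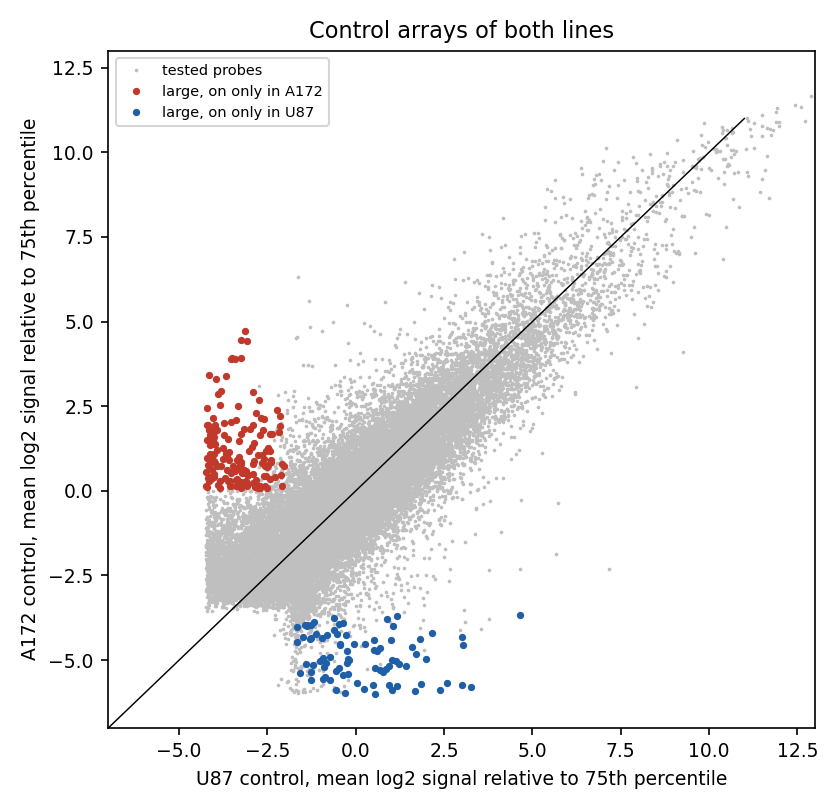
Mean level of each tested probe in the control arrays of A172 (n = 3, vertical axis) against U87-MG (n = 4, horizontal axis), both as log2 signal relative to the 75th percentile, for 28211 of the 28246 tested probes (Y-linked genes were not drawn). Red and blue points are large differences that were on only in A172 or only in U87-MG, and the line marks equal levels.

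Most of the large differences returned on arrays that had no part in choosing them, although those lay on the same slides. On the knockdown arrays 143 of the 164 probes (87.2%) were again on in A172 alone, and 64 of the 84 (76.2%) in U87-MG alone. There 3811 probes (7.53%) were on only in A172 and 153 (0.302%) only in U87-MG over the whole array. Of the 21 A172 probes that lost the pattern, all were detected on some U87-MG array, and of the 20 U87-MG probes 16 were detected in A172 and 4 were not on in every U87-MG array. Among the large differences named below by rule, RGS16, TAGLN and WNT9A lost the pattern of A172 there, and CA9, CYP1B1, HAS1, GDNF, KRT75 and SERPINB2 that of U87-MG. Among the smaller ones described below CD2, HOXB3 and ITGA6 lost it. Gene symbols were known for 122 and 65 of the large probes, which stand for 115 and 61 genes. In 84 and 43 of these genes all probes of the gene were off in the dim line, whereas in 31 and 18 another probe was above background on at least 1 of its arrays.

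Among the tested probes, 1389 of 28246 (4.92%) were higher in A172 and 1079 (3.82%) higher in U87-MG. On the knockdown arrays the same test named 1466 of 27608 (5.31%) and 1088 (3.94%). A172 took 56.3% of the named differences on the scale used here, 76.4% after normexp, 68.4% after quantile normalization, 69.4% with the deposited values, 68.7% when the percentile was taken over probes on in all arrays and 89.7% with the E1A spots, so the balance between the lines has no fixed value. It turned toward U87-MG with other filters: A172 took 35.2% among probes on in all 7 arrays, 31.6% with the laxer mark of detection and 27.8% when dim probes were tested too. Relative to the scale used here the median difference of all tested probes shifted by -0.27 with normexp, 0.10 with the deposited values, 0.18 with the percentile over shared probes and 0.73 with the E1A spots. Lists of genes are counted below by the brightest probe of each gene, beside 720 of all 14671 tested genes (4.91%) higher in A172 and 612 (4.17%) in U87-MG. These counts include genes off in one line, which entered the test only through the line where they were bright, so each list is also counted over its genes on in all 7 arrays, and medians are taken over these alone. Of 9122 such genes 188 (2.06%) were higher in A172 and 380 (4.17%) in U87-MG, with a median of -0.30 (-0.22 to 0.43 over the other scales). Of the 156 probes named by the rule for naming genes 152 were tested, and 1 of these changed its sign between the scales (DLL1). With normexp 85 of the 142 that passed the thresholds did so again, among them 34 of the 46 that were on in all 7 arrays. Of the 68 on in one line alone 33 did not. Among these were HOTAIR, IL18, IL34, ISG20, NOTCH1, PDGFRB, PECAM1, PTPRC and SOX2, whose differences with normexp lay between 0.12 and 0.68. Of the 74 not on in one line alone 24 lost their call with normexp: AKR1B10, EPHA4, EPHB4, EREG, HOXA9, IFI44L, IL6, LAMB3, MET, MMP3, NF2, NID2, NRP2, NTF3, NTRK3, OASL, PLXNA1, PVT1, RBFOX3, RBPJ, SNHG12, TFRC, TGFBR3 and WNT5B.

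Limits are printed for the scale and floors described above. For the large differences named by rule they were smaller with normexp and with a common floor. With some other settings they were larger, such as 7.16 against 6.40 (log2) for KRT18 by probe A_24_P42136. For the 12 genes with the largest limits in each line they lay between 5.86-fold and 29.5-fold (A172) and between 7.54-fold and 37.5-fold (U87-MG) with normexp, and with a common floor between 10.7-fold and 57.4-fold and between 6.98-fold and 54.7-fold. Of all 32 and 21 large probes named by rule, 12 and 6 fell under 4-fold with normexp and 9 and 8 with the common floor. In A172 these were GSTM3, HOXB5, HOXB6, MAGEA12, MATN3, MEG3, MIAT, PLAT, POSTN, PRAME, TAGLN and WNT9A with normexp. The common floor left HOXB6, PLAT and TAGLN above 4-fold. In U87-MG they were GDNF, HLA-DPB1, KRT75, NTNG1, SEMA7A and SERPINB2 with both settings, and HGF and HLA-DRA with the common floor only.

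The genes on in A172 alone with the largest limits encode signalling regulators, a receptor, intermediate filaments and matrix proteins. RGS16, which speeds up the shutting off of G protein alpha subunits, stood at 2.5, 6.25 and 5.43 on the A172 arrays and at -3.77, -2.88, -2.88 and -2.97 on the U87-MG arrays by probe A_23_P320578. A172 replicate 1 was the lowest of its line, yet far above every U87-MG array. The limit was at least 101-fold, at least 218-fold without replicate 1 of A172 and at least 59.3-fold without replicate 2, and its other probe was off in U87-MG too, with at least 28.8-fold. On the knockdown arrays A_23_P320578 was detected on 1 U87-MG array. PLXND1, a plexin that serves as a semaphorin receptor, varied least of these genes between the A172 arrays, with 4.53, 4.33 and 4.45 in A172 and -3.46, -2.71, -3.37 and -2.73 in U87-MG. Its limit was at least 82.4-fold.

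KRT18 and KRT8 encode the keratin partners of simple epithelia and lie next to each other in the genome. By probe A_24_P42136, KRT18 stood at 4.54, 5.05 and 3.81 in A172 and at -4.19, -4.34, -1.28 and -3.18 in U87-MG, at least 84.2-fold apart. Its other probe, A_32_P151544, was above background on 2 of the 4 U87-MG arrays, so that the gene was not silent there, and differed by 7.93. For KRT8 the probes disagreed: A_24_P67395 was off in U87-MG with a limit of at least 21.6-fold, A_33_P3372368 was on in both lines with a difference of 2.44, and A_23_P14072 was on in both lines and differed by -0.11 (adjusted p = 0.855). The processed pseudogene KRT18P55, whose sequence resembles that of KRT18, had the largest difference toward A172 among the probes on in all 7 arrays, at 6.93 (adjusted p = 7.23e-06), and cross-hybridization was not tested. Over the keratin list 18 of 29 genes were tested, 1 was higher in each line but none of the 10 on in all arrays, and KRT75 was on in U87-MG alone, at least 7.59-fold, but at least 2.78-fold with normexp and 1.15-fold with a common floor.

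Markers of epithelial cells did not move with the keratins. Of 12 epithelial markers 6 were on in all A172 arrays and 4 in all U87-MG arrays, none of the 6 tested was higher in either line, and CDH1 and RAB25 were off in both. Their summed signal, relative to the 75th percentile on a linear scale, was 23.4, 44.6 and 31.0 in A172 and 64.3, 84.0, 67.7 and 72.8 in U87-MG, and CLDN7 was the brightest of them.

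**Figure D3:**
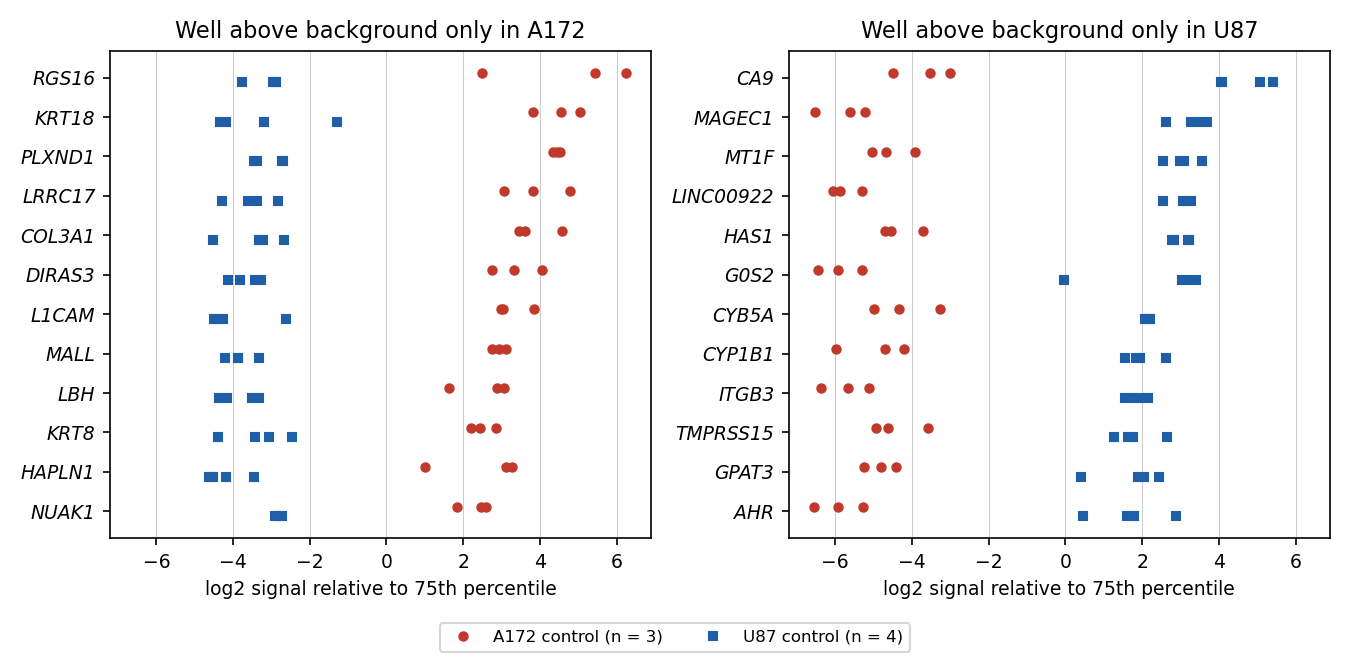
Level of the 12 genes with the largest limit in each direction, as log2 signal relative to the 75th percentile, 1 probe per gene and 1 point per control array (red circles A172, n = 3; blue squares U87-MG, named U87, n = 4). In every gene shown the lines are separated by a gap.

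Several further genes of this group encode proteins of the cell surface or the space around it. COL3A1, a fibrillar collagen, stood at 4.59, 3.61 and 3.46 in A172 and at -2.67, -3.21, -3.33 and -4.51 in U87-MG (at least 56.2-fold). LRRC17, a leucine-rich repeat protein, was off in U87-MG by both of its probes, with at least 56.6-fold by A_23_P253958. L1CAM, a neural adhesion molecule, reached at least 37.4-fold by probe A_24_P207995, but its other probe was above background on 3 of 4 U87-MG arrays and differed by 4.37. HAPLN1, the link protein that fastens hyaluronan to proteoglycans, was at least 20.9-fold higher in A172, and at least 34.6-fold without replicate 1, its lowest A172 array. DIRAS3, an imprinted small GTPase that restrains growth, stood at 2.76, 3.33 and 4.06 in A172 and was off in U87-MG (-4.12, -3.43, -3.28 and -3.81), at least 39.7-fold. The list was completed by MALL (at least 29.1-fold), a proteolipid of membrane rafts, LBH (at least 21.9-fold), a transcription cofactor, and NUAK1 (at least 18.7-fold by probe A_23_P348257, its other probe being detected on 1 U87-MG array), a kinase related to AMPK. In all of these the levels of the lines did not overlap.

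CDKN2C, which encodes the cyclin-dependent kinase inhibitor p18, stood at 2.31, 1.59 and 1.94 in A172 and was off in U87-MG (-4.07, -4.34, -3.05 and -4.43), at least 14.6-fold. Its neighbour in the genome, FAF1, an adaptor of FAS signalling, showed the same picture with 1.69, 1.39 and 1.65 in A172 and a limit of at least 11.4-fold. Both were again on in A172 alone on the knockdown arrays. FAF1 and the genes around it were looked up after the values were seen: DMRTA2, ELAVL4 and C1orf185 were off in both lines and RNF11 was on in both, so they add no further gene to the pair. Among 113 genes of the large A172 group (Y-linked genes left out) 3 pairs were direct neighbours, FAF1 with CDKN2C, KRT8 with KRT18 and HOXB5 with HOXB6. Among the 61 genes of the U87-MG group there was 1 such pair, COL6A3 with MLPH.

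In the opposite direction CA9 had the largest limit of all. It encodes carbonic anhydrase IX, an enzyme of the cell surface that is induced when oxygen is short. CA9 stood at 4.04, 4.09, 5.42 and 5.07 in U87-MG and at -4.49, -3.01 and -3.54 in A172, at least 310-fold apart, or at least 37.5-fold with normexp and 54.7-fold with a common floor. No A172 control array detected it, and the levels were separated by a wide gap. On the knockdown arrays it was detected on 2 A172 arrays, so there the gene was not off. VEGFA, a growth factor of vessels that also rises when oxygen is short, was looked up afterwards and was higher in U87-MG by -4.09 by probe A_23_P70398, while its other probe was off in A172 and detected on 3 of 4 U87-MG arrays.

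The promoter of CA9 is shown because this gene led the comparison, with the letters ACGTG, the core bound by hypoxia-inducible factors, in capitals where they occur on either strand (CACGT on the strand printed). It lies at chr9:35673678-35673977 on the plus strand of GRCh38.p14 (RefSeq) and covers 300 bases around the start of the gene. It holds 1 match, on the opposite strand, and 23.1% of 22240 promoters of this length hold at least 1. A match is a description of the letters and not a site of binding, and the motifs were chosen after the values were seen.
CA9: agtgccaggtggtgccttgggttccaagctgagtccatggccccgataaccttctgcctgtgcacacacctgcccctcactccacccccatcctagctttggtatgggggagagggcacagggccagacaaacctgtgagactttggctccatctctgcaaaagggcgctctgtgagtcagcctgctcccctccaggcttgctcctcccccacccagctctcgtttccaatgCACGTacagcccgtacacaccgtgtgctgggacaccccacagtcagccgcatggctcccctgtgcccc

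Further genes on in U87-MG alone act in the handling of foreign compounds and lipids. AHR, the receptor for dioxin-like compounds, stood at 1.6, 1.80, 0.47 and 2.88 in U87-MG and at -6.57, -5.28 and -5.93 in A172 by probe A_33_P3316800 (at least 46.0-fold), and its other probe was off in A172 and on in 3 of 4 U87-MG arrays. CYP1B1, a cytochrome P450 whose gene is a known target of that receptor, was off in A172 by both probes, with at least 56.7-fold and at least 23.0-fold. G0S2, an inhibitor of the lipase that breaks down stored fat, reached at least 75.1-fold, although replicate 3 of U87-MG lay at -0.04 against 3.04, 3.41 and 3.15 on the others. Without that array its limit was at least 132-fold. GPAT3, an acyltransferase that starts the making of triglycerides, was at least 46.3-fold and CYB5A, the electron carrier cytochrome b5, at least 63.7-fold higher in U87-MG.

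Hyaluronan synthase, integrin and antigen genes belonged to the same group. HAS1, one of the enzymes that spin out hyaluronan, stood at 3.22, 3.19, 2.84 and 2.78 in U87-MG and at -4.54, -3.71 and -4.70 in A172 by probe A_33_P3295200, at least 115-fold apart. A second probe was off in A172 too, at least 85.6-fold, but a further one, A_33_P3295203, was on in both lines and differed by -1.73. ITGB3, the beta chain of a vitronectin receptor, was at least 51.3-fold higher in U87-MG, while none of the 10 integrins on in all arrays was named in either direction. ITGA6 was on in A172 alone by 1 probe, at least 1.6-fold, a pattern that did not return on the knockdown arrays. MAGEC1, a cancer-testis antigen, reached at least 136-fold by probe A_33_P3241831, while its other probe was on in both lines and differed by -2.13. LINC00922, a long noncoding RNA, was off in A172 by 2 probes, with at least 116-fold by A_21_P0009046, and on in both lines by 2 others, with differences of -4.48 and -0.49. TMPRSS15, the protease enteropeptidase, followed with at least 50.8-fold.

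Metallothioneins, small proteins that bind zinc and copper, were higher in U87-MG through most of their gene cluster, which was looked up as a whole after MT1F and MT1E had been named by rule. MT1F stood at 3.10, 3.55, 2.54 and 2.98 in U87-MG and at -4.68, -5.03 and -3.93 in A172, at least 118-fold apart. MT1E was on in both lines and differed by -7.52 by probe A_21_P0000671 and by -3.13 by probe A_23_P206724. The other members differed less: MT1A by -2.78, MT1B by -2.49, MT1X by -2.81 and -2.51 and MT2A by -2.13 (adjusted p = 0.00634). MT1L differed by -1.85, under the size asked for. MT1M was off in A172 and on in 3 of 4 U87-MG arrays, at least 11.2-fold. MT3, the brain member of the family, was an exception, with 5.76, 6.50 and 5.97 in A172 and 6.02, 5.71, 6.33 and 5.33 in U87-MG, a difference of 0.23 (adjusted p = 0.652). MT1G and MT1H were too dim to be tested. Paralogs of this family are alike in sequence, and how far their probes cross-hybridize was not tested.

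The promoter of MT2A is given as that of a member of the cluster, with the core of the metal response element, TGCACNC or TGCGCNC, in capitals on either strand. It lies at chr16:56608334-56608633 on the plus strand of GRCh38.p14 (RefSeq). There were 8 matches, and 33.7% of all promoters of this length hold at least 1 match to either form.
MT2A: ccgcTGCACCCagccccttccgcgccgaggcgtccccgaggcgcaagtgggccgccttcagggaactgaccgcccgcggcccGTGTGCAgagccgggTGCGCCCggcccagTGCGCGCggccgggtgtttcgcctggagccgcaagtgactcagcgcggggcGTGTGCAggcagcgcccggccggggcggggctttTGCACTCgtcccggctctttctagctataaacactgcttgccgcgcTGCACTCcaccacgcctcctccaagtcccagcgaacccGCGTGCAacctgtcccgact

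Some genes of class II antigen presentation were higher in U87-MG. HLA-DRA, the shared chain of HLA-DR, stood at 0.88, 1.13, 0.06 and 1.35 in U87-MG and at -5.38, -4.56 and -5.85 in A172 (at least 25.9-fold). With a common floor its limit was at least 3.93-fold. HLA-DPB1 was off in A172 by probe A_23_P258769 (at least 13.8-fold), but its other 3 probes were detected on some or all A172 arrays and differed by -2.54 to -3.83. The limit of A_23_P258769 was at least 3.58-fold with normexp and 2.09-fold with a common floor. CD74, the invariant chain that escorts class II molecules, was above background on 1 of 3 A172 arrays, with -4.71, -3.42 and -3.33 against 1.74, 1.57, 2.66 and 1.59 in U87-MG, a difference of -5.72 that rests on 2 A172 signals not above background. The probes of other class II genes, looked up after the values were seen, disagreed: HLA-DPA1 differed by -4.06 by a probe detected on 1 A172 and 3 U87-MG arrays, HLA-DQB1 by -3.61 by a probe detected on 2 A172 arrays, and HLA-DMA by -2.40 by a probe detected on 1 A172 and 3 U87-MG arrays whose levels overlapped, but their other tested probes differed by -1.02, by -0.91 and -0.96, and by 0.52, none of them past the threshold. In the list for HLA and antigen presentation, taken with 1 probe per gene, 3 of 26 tested genes were higher in U87-MG and none in A172, but among the 21 on in all arrays only HLA-DPB1 was, and their median was 0.17 (0.14 to 0.90 over the other scales).

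Immune cell markers did not follow class II genes in 1 direction. Of 14 markers 12 had a probe, 10 were on in all A172 arrays and 6 in all U87-MG arrays, and TYROBP was the brightest. Their summed signal was 13.1, 20.9 and 17.8 in A172 and 28.2, 27.9, 36.3 and 21.7 in U87-MG on the linear scale. CD68, a lysosomal protein of macrophages and other cells, was higher in U87-MG by a difference of -3.98, and CD2 was on in A172 alone, at least 3.15-fold, but detected on 2 U87-MG knockdown arrays. PTPRC, a phosphatase of white blood cells, was on in A172 alone by probe A_33_P3309526, at least 2.49-fold, and on in both lines by A_33_P3364808, with a difference of 0.07. The RNA came from cultured glioblastoma lines, so these signals are levels in each line and give no count of immune cells.

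The promoters of HLA-DPB1 and CD74 are shown for these class II genes, with ATTGG, the reverse of the CCAAT box found in class II promoters, in capitals on either strand (CCAAT on the strand printed). They lie at chr6:33075740-33076039 on the plus strand and at chr5:150412861-150413160 on the minus strand of GRCh38.p14 (RefSeq). They hold 2 matches and 1 match, and 34.7% of all promoters of this length hold at least 1. The table of promoters held entries for only 73.5% of the large A172 genes and 70.5% of the large U87-MG genes, beside 75.9% of all genes of the array. Their base composition is not compared here.
HLA-DPB1: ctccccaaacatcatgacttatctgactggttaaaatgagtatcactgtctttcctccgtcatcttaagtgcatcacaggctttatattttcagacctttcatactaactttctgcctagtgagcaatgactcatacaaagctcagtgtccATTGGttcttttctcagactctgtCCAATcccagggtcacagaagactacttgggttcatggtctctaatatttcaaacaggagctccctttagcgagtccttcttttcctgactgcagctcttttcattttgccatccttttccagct
CD74: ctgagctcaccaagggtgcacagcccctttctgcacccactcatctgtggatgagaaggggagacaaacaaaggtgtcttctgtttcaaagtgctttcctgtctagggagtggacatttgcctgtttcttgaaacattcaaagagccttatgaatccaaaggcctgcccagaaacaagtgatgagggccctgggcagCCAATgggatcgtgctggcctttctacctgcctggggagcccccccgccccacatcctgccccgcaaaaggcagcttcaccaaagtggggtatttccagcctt

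Among probes on in all 7 arrays, where a fold change can be measured, the 10 largest differences toward U87-MG included MT1E, given above, and genes of secreted and of intracellular proteins. TFPI2, an inhibitor of serine proteases that is laid down in the matrix, stood at 8.26, 8.36, 4.80 and 7.28 in U87-MG and at -1.85, -2.69 and -2.43 in A172, a difference of -9.50 (SE 0.76, adjusted p = 5.10e-05). Replicate 3 of U87-MG was the lowest, and without it the difference was -10.29. TNC, the glioma matrix protein tenascin C, stood at 4.73, 4.80, 3.84 and 5.21 in U87-MG and at -3.26, -1.62 and -2.09 in A172, a difference of -6.96 (SE 0.46). FN1, fibronectin, stood at 5.47, 5.38, 5.72 and 6.35 in U87-MG and at -0.12, -0.58 and -0.40 in A172, a difference of -6.09 (SE 0.33). In these genes the lines were far apart on every array. C3, the central complement protein, differed by -4.96 and -4.59 by its probes, CSF3, which drives the making of neutrophils, by -5.31 and -3.05, CYBA, a subunit of the NADPH oxidase, by -5.33 and the linker histone H1-1 by -6.10. ABL1 differed by -5.02 by probe A_23_P60180 but by -0.43 by probe A_24_P282416 (adjusted p = 0.392).

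Toward A172 the 10 largest measured differences were led by KRT18P55, given above, and belonged to no single kind of gene. SPARC, a collagen-binding matrix protein, stood at 6.10, 6.45 and 5.98 in A172 and at 1.36, 1.68, 0.34 and 2.14 in U87-MG, a difference of 4.80 (SE 0.42, adjusted p = 8.57e-05). COL1A2, a chain of type I collagen, differed by 4.75 (SE 0.34), TPM2, a tropomyosin of actin filaments, by 4.60 (SE 0.31) and 5.05 by its probes and S100A4, a calcium-binding protein of motile cells, by 4.04. DKK3, a secreted relative of WNT inhibitors, differed by 4.91 by probe A_33_P3261293, and its probe A_24_P261417 was off in U87-MG with at least 14.8-fold. MYO3A, an unconventional myosin, differed by 4.30, and by 5.07 without replicate 1 of A172. CACTIN and the uncharacterized LOC100507547 followed with 4.05 and 4.02, and ACBD4 with 4.07 by probe A_24_P366122 but -0.23 by its other probe.

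Of 43 collagen genes 29 were tested, and 8 were higher in A172 and 1 in U87-MG, of which 3 and 1 were off in the other line. Among the 18 on in all arrays 2 were higher in A172 (COL1A2 and COL4A1) and none in U87-MG, with a median of 0.37 (0.43 to 1.1 over the other scales). COL5A2 stood at 5.48, 4.4 and 4.60 in A172 and at -1.33, -0.92, -3.29 and 0.35 in U87-MG, a difference of 6.12, and of 5.46 without replicate 3 of U87-MG, which did not detect it. COL18A1, the source of endostatin, was on in A172 alone, at least 17.8-fold. COL6A3, a chain of the microfibrillar type VI collagen, went the other way and was on in U87-MG alone by probe A_33_P3210488, at least 31.6-fold, its other probe being off in both lines. In the list of laminins and matrix glycoproteins 7 of 29 tested genes were higher in A172, such as THBS2 and MATN2 (each detected on 3 of 4 U87-MG arrays), and 2 in U87-MG, LAMB3 and NID2 (off in A172, on in 3 of 4 U87-MG arrays and untested without replicate 1, 2 or 4 of U87-MG), and among the 15 on in all arrays 1 was higher in each line, with a median of -0.14 (0.04 to 0.59 on the other scales). MATN3, a cartilage matrix protein, was on in A172 alone, at least 6.36-fold.

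Matrix proteases and their inhibitors included 4 of 28 tested genes higher in A172 and 6 in U87-MG, and among the 16 on in all arrays 1 and 3, with a median of -0.59 (-0.56 to 0.14, positive with the E1A spots). The plasminogen activators took opposite sides. PLAT, the tissue type, was on in A172 alone, with 0.20, 1.89 and 1.39 against -3.94, -3.72, -3.32 and -3.35, at least 8.51-fold. PLAU, the urokinase type, was higher in U87-MG by -4.47 and -3.18 by its probes, the former detected on 2 A172 arrays and changing to -3.82 without replicate 1 of A172. SERPINB2, an inhibitor of urokinase, was on in U87-MG alone, at least 6.18-fold, but at least 2.67-fold with normexp and with no fold under a common floor. MMP3, a stromelysin, was off in A172 and on in 3 of 4 U87-MG arrays, at least 7.29-fold, and was untested without replicate 1, 2 or 4 of U87-MG. ADAM19, a membrane metalloprotease, was on in A172 alone by probe A_23_P374082, at least 11.9-fold, and detected on 3 U87-MG arrays by its other probe. TIMP2, a metalloprotease inhibitor, was higher in A172 by 3.94 and detected on 2 of 4 U87-MG arrays.

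Genes linked with the mesenchymal state of glioma included 6 of 34 tested higher in A172 and 6 in U87-MG, and among the 25 on in all arrays 2 and 3, with a median of -0.78 (-0.69 to -0.05). TGFBI, a matrix protein induced by TGF-beta, stood at 3.62, 3.76, 2.51 and 4.35 in U87-MG and at -6.31, -3.03 and -2.87 in A172, where only 1 of 3 arrays detected it. The difference of -7.63, which rests on 2 A172 signals not above background, was -6.51 without replicate 1 of A172 and -8.23 without replicate 3. FN1 and TNC, given above, belonged to the same list. In A172 POSTN, a matrix protein of remodelled tissue, was on with at least 6.56-fold and TAGLN, an actin-binding protein of smooth muscle, with at least 7.26-fold by probe A_23_P87013, while another TAGLN probe was detected on 3 U87-MG arrays and differed by 3.71. CCN2, a growth factor-binding matrix protein, was higher in A172 by 4.10, detected on 3 of 4 U87-MG arrays, and by 3.45 without replicate 3 of U87-MG.

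HOX genes were on more widely in A172, whose arrays were also the brighter ones. Of 39 genes 12 were on in A172 and off in U87-MG and none the reverse, beside 1553 (7.4%) and 45 (0.214%) of the 20992 genes of the array with 1 probe each. In the HOXB cluster 7 of 10 genes were on in all A172 arrays and 2 in all U87-MG arrays, in HOXC 8 and 2 of 9, in HOXA 5 and 3 of 11 and in HOXD 5 and 4 of 9. Most of the 12 were dim. The 5 in HOXC had A172 means from -2.84 to -2.24, and HOXB7, HOXD3 and HOXA13 from -2.45 to -2.12. The dimmest signals well above background on the U87-MG arrays were -2.01, -2.24, -1.12 and -2.35, so no fold can be given for these genes. HOXC4 had means of -2.37 in A172 and -2.28 in U87-MG. By the brightest probe 2 had a large limit, the neighbours HOXB6 (1.22, 0.86 and 0.67 in A172, at least 7.19-fold) and HOXB5 (0.73, 0.62 and 0.78, at least 6.23-fold). Their limits were at least 2.79-fold and 2.40-fold with normexp, and 4.10-fold and 3.55-fold with a common floor. The U87-MG arrays were also the dimmer ones, and their part in the share of HOX genes on in A172 alone was not tested. Of 25 tested HOX genes 8 were higher in A172 and 1 in U87-MG, but 12 of the 25 were off in U87-MG, HOXB3, HOXB5, HOXB6 and HOXB8 among the 8. Of the 11 on in all arrays 3 were higher in A172 and 1 in U87-MG. The brightest members, HOXA9 and HOXA10, were on in both lines by 1 probe and in A172 alone by another. The HOXA9 probes disagreed in direction. HOXA9 was higher in U87-MG by probe A_33_P3416231 (-2.39) and on in A172 alone by probe A_23_P500998 (at least 11.8-fold). HOXA10 was higher in A172 by 2.08 by probe A_33_P3288649 and on in A172 alone by probe A_24_P77904 (at least 2.77-fold). HOTAIR, a long noncoding RNA of the HOXC cluster, was on in A172 alone by probe A_19_P00330464, at least 2.69-fold, but its probes disagreed, with differences from -1.06 to 3.13.

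**Figure D4:**
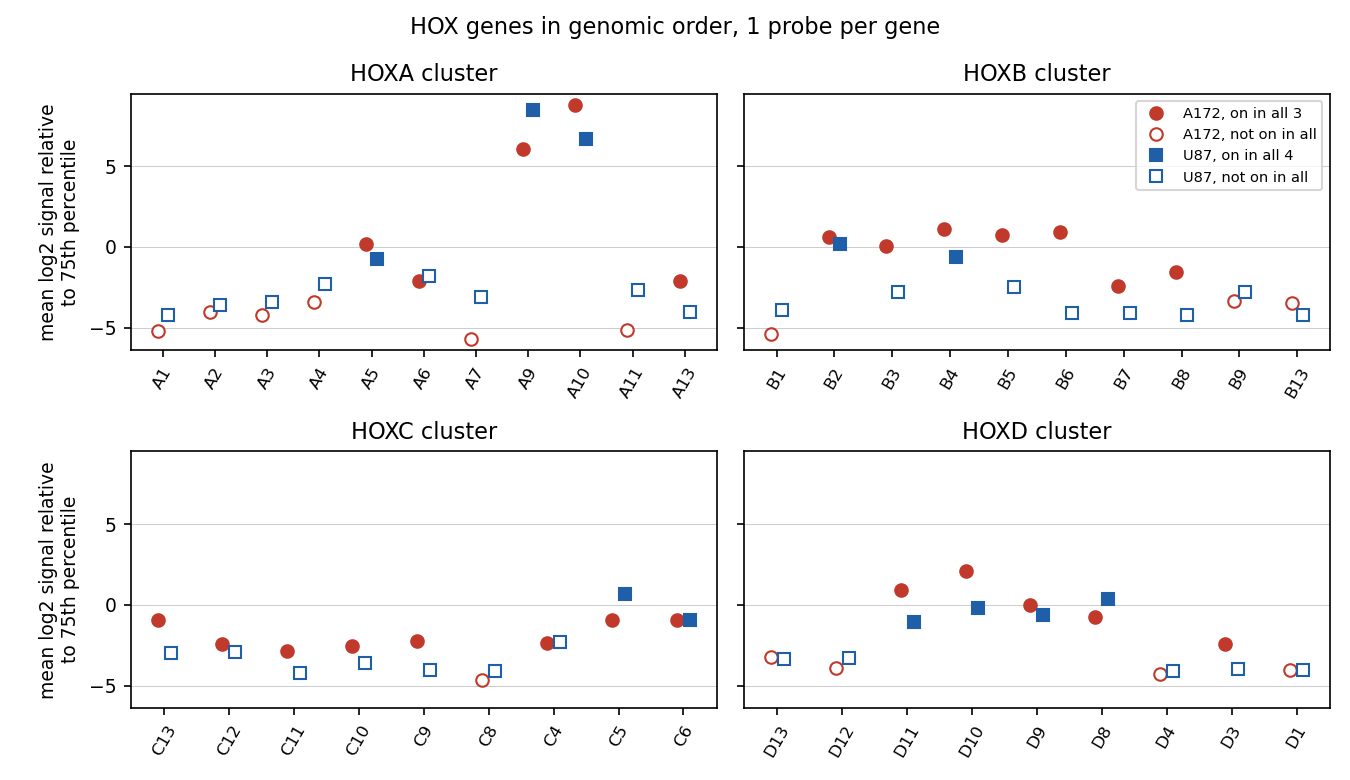
Mean level of the HOX genes in the 4 clusters, in genomic order with 1 probe per gene, as log2 signal relative to the 75th percentile (red circles A172, n = 3; blue squares U87-MG, named U87, n = 4). Filled symbols were well above background on all control arrays of the line: 7 of 10 HOXB genes were so in A172 and 2 in U87-MG.

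Of 9 glial and glioma markers 6 were on in all A172 arrays and 3 in all U87-MG arrays, and their summed signal, led by VIM, was 237, 298 and 228 in A172 and 741, 789, 407 and 683 in U87-MG. GFAP, the filament of astrocytes, was not above background by probe A_23_P66593 on any array and by probe A_33_P3335895 on 1 A172 array, and S100B and FABP7 were off in both lines. VIM, the intermediate filament of mesenchymal and immature glial cells, was bright throughout, with 7.28, 7.05 and 7.07 in A172 and 8.90, 8.95, 8.32 and 8.92 in U87-MG. SOX2, a factor of neural stem cells, stood at -1.03, 0.19 and -0.55 in A172 and was off in U87-MG, at least 2.76-fold. NES, nestin, was on in both lines, higher in A172 by 3.02 by probe A_23_P103672 (3.61 without replicate 1 of A172) and not different past the threshold by probe A_33_P3358233 (-0.87, adjusted p = 0.195). In the wider list of glial and neural stem genes 3 of 15 tested were higher in A172 and none in U87-MG, but none of the 5 on in all arrays was, and 9 of the 31 listed were on in no array.

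Markers of other cells gave single differences. NEFL, a neurofilament, was on in A172 alone, at least 12.6-fold, and RBFOX3, a splicing factor of neurons, was higher in U87-MG by -2.06, a call that was lost without replicate 1 (-1.85) or 3 (-1.98) of A172 or replicate 1 of U87-MG (-1.97) and that was under the size asked for on the other scales too, from -1.33 to -1.88. Of 12 neuronal markers 7 were on in all A172 arrays and 3 in all U87-MG arrays, and ELAVL3, NEFM, STMN2 and SYP were off in both lines. Their summed signal, led by RBFOX3, was 42.6, 71.4 and 46.1 in A172 and 82.5, 83.1, 56.0 and 61.4 in U87-MG. PECAM1 was on in A172 alone by probe A_33_P3405213, at least 2.68-fold. Of 9 endothelial markers 5 were on in all A172 arrays and 2 in all U87-MG arrays, CDH5 was the brightest (mean 2.43 in A172 and 1.30 in U87-MG), and CLDN5, EMCN, ERG and TEK were off in both lines. Their summed signal was 6.62, 11.6 and 8.78 in A172 and 5.02, 5.64, 7.34 and 3.82 in U87-MG. Of 7 melanocytic markers all were on in all A172 arrays and 2 in all U87-MG arrays, led by PMEL, with a summed signal of 3.16, 4.38 and 3.79 in A172 and 6.06, 4.93, 12.4 and 4.38 in U87-MG, and none was named as higher in either line. In each of these classes more markers were on in A172, as were more spots of the whole array.

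Receptor tyrosine kinases and their ligands were compared as the signalling input of glioma cells. Of 37 tested receptors 5 were higher in A172 and 2 in U87-MG (4.91% and 4.17% of all tested genes were), and of the 20 on in all arrays 2 and 1, with a median of 0.08 (-0.16 with normexp to 0.81). PDGFRB, a receptor of platelet-derived growth factor, was on in A172 alone, at least 3.07-fold, and the ephrin receptors EPHA4 and EPHB4 were higher there by 3.06 and, by probe A_33_P3216532, 3.33, detected on 2 and 1 of 4 U87-MG arrays. MET, the receptor of HGF, was higher in U87-MG by -2.33 (adjusted p = 0.0219). Its levels overlapped between the lines, with -1.48 on replicate 1 of A172 and -1.77 on replicate 3 of U87-MG. The call was lost when replicate 2 (-1.77) or 3 (-2.20) of A172 was left out, and the difference was -3.02 without replicate 1 of A172. It was not tested without replicate 1, 2 or 4 of U87-MG, since MET was above background on 2 A172 and 3 U87-MG arrays only. NTRK3, a neurotrophin receptor, was higher in U87-MG by -2.18 by probe A_23_P205900, but by -1.73 without replicate 1 of A172 and -1.92 without replicate 3 of U87-MG, under the size asked for, and its probe A_33_P3260134 differed by 1.21.

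Among 39 tested ligands 5 were higher in A172 and 8 in U87-MG, and among the 22 on in all arrays none and 5, with a median of -0.27 (-0.23 to 0.46, positive with the E1A spots). HGF stood at 0.52, 0.32, 0.33 and 1.01 in U87-MG and at -6.60, -5.42 and -5.96 in A172, at least 20.9-fold apart, while its other probe was off in A172, detected on only 1 U87-MG array and untested. With a common floor the HGF limit was at least 3.17-fold. GDNF, a glial neurotrophic factor, was on in U87-MG alone by probe A_24_P25544, at least 17.1-fold, while probes A_23_P167683 and A_33_P3268892 were detected in A172 and differed by -3.41 and -2.37. The limit of A_24_P25544 was at least 3.74-fold with normexp and 2.60-fold with a common floor. EREG, an EGF receptor ligand, was off in A172 and on in 3 of 4 U87-MG arrays, at least 7.72-fold, and was likewise untested without replicate 1, 2 or 4. EFNB3, an ephrin, was on in A172 alone, with 1.26, 1.49 and 1.74 and a limit of at least 10.7-fold, and IL34, a ligand of the CSF1 receptor, likewise, at least 2.01-fold. NTF3, a neurotrophin, was higher there by 2.67, but was detected on 1 of 4 U87-MG arrays and differed by 0.67 with normexp, which ended the call.

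In the TGF-beta and BMP pathway 9 of 42 tested genes were higher in A172 and 5 in U87-MG, and among the 22 on in all arrays 3 and 3, with a median of -0.35 (-0.25 to 0.39, positive with the E1A spots). The BMP antagonists differed in direction. NOG, noggin, stood at 1.08, 2.18 and 2.73 in A172 and was off in U87-MG, at least 15.2-fold. GREM1, gremlin, was off in A172 by probe A_23_P432947 and on in 3 of 4 U87-MG arrays, with 0.04, -0.09, -3.31 and 0.93 and a limit of at least 9.41-fold, or at least 17.6-fold without replicate 3. Its other probe, A_33_P3319870, was detected on 2 A172 arrays and differed by -4.49. The first was untested without replicate 1, 2 or 4. TGFBR2, a TGF-beta receptor, was higher in A172 by 3.22 and BAMBI, a decoy receptor detected on 3 of 4 U87-MG arrays, by 3.71, while TGFBR3 and LTBP1, which hold the ligand at the cell and in the matrix, were higher in U87-MG by -3.05 and, by probe A_33_P3304655, -3.41. The other LTBP1 probe differed by -2.37 (adjusted p = 0.0951). TGFBR3 was above background on 1 A172 and 3 U87-MG arrays, and its difference was -3.70 without replicate 1 of A172 and untested without replicate 1, 2 or 4 of U87-MG.

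In the WNT pathway 5 of 28 tested genes were higher in A172 and 2 in U87-MG, and among the 17 on in all arrays 3 and 2, with a median of -0.38 (-0.42 to 0.35, positive with the E1A spots). DKK1, a secreted inhibitor of WNT receptors, stood at 6.07, 5.42 and 5.01 in A172 and at 0.27, 0.48, -3.20 and 1.51 in U87-MG, a difference of 5.73 that fell to 4.75 without replicate 3 of U87-MG, which did not detect it. RSPO3, which strengthens WNT signals, was higher in A172 by 3.35 by probe A_24_P106542, its other probe being off in both lines, and WNT9A was on there alone, at least 5.17-fold. WNT7B was higher in U87-MG by -4.66 and -2.74 by the probes on in both lines. WNT5B was higher there by -2.13, a call that was lost without replicate 3 of U87-MG, where the difference fell just under the size asked for. In the Notch pathway 2 of 23 tested genes were higher in A172 and 1 in U87-MG, and among the 15 on in all arrays 1 in each, with a median of 0.36 (0.44 to 1.09). NOTCH1 was on in A172 alone by probe A_23_P60387, at least 2.36-fold, and on in both lines by its other probe, with a difference of 2.14. The ligand DLL1 was on in A172 alone, at least 1.59-fold, but with normexp its difference of 2.48 was -0.02. RBPJ, the factor that Notch acts through, was higher in U87-MG by -2.47 and -2.10 by its probes.

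Of 35 tested semaphorin, plexin and axon guidance genes 4 were higher in A172 and 5 in U87-MG, and of the 21 on in all arrays 1 and 2, with a median of -0.36 (-0.22 to 0.37, positive with normexp and the E1A spots). Beside PLXND1, PLXNA1 and SEMA3C were higher in A172 by 2.98 and 3.44. PLXNA1 was detected on 1 of 4 U87-MG arrays and differed by 0.75 with normexp, which ended the call. SEMA3C was detected on 3 of them and differed by 2.61 without replicate 3 of U87-MG, and it was not named without replicate 1 or 2 of A172. SEMA7A, a membrane-anchored semaphorin, and NTNG1, a netrin, were on in U87-MG alone, at least 10.6-fold and at least 11.6-fold, but at least 1.61-fold and 1.76-fold with a common floor, the other NTNG1 probes being off in both lines, and NRP2, a semaphorin coreceptor, was higher there by -2.83 and -2.15 by its probes, while probe A_23_P393727 differed by -1.16. Cadherins and protocadherins gave 1 gene in each direction among 17 tested (CDH22 by 2.81 and CDH7 by -3.42), both on in all arrays, as were 9 of the list, with a median of 0.22 (0.28 to 0.95).

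Of 16 tumour suppressors and oncogenes of glioma on in all arrays none was higher in A172 and 1, NF2, in U87-MG, with a median of -0.30 (-0.21 to 0.43, positive with the E1A spots). CDKN2C, given above, and CDK6 were further members among 21 tested. CDK6, a cyclin D-dependent kinase, was higher in A172 by 3.66, detected on 3 of 4 U87-MG arrays, or by 2.89 without replicate 3 of U87-MG. NF2, the tumour suppressor merlin, was higher in U87-MG by -3.72 by probe A_24_P168726, its other probe being dim and untested.

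Cancer-testis antigens were on in A172 alone in 6 cases and in U87-MG alone in 1 among 36 with a probe, beside 7.4% and 0.214% of all genes. Of 17 tested 2 were higher in A172 and 1 in U87-MG, but only 5 of the 17 were on in all arrays and none of these was named, so no median is given. MAGEA12 stood at 0.85, 0.74 and 1.00 in A172, at least 6.92-fold, and PRAME at 0.66, 1.02 and 0.76, at least 6.70-fold. MAGEC1, given above, was the member on in U87-MG.

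Interferon-induced genes were higher in A172 in 6 and in U87-MG in 2 of 37 tested cases, and in 3 and 1 of the 22 on in all arrays, with a median of -0.28 (-0.21 to 0.45, positive with the E1A spots). IFITM2 and IFITM3, which block the entry of viruses, were higher in A172 by 3.37 and 3.34, and ISG20, an exonuclease, was on there alone, at least 2.84-fold. OASL, an antiviral protein related to oligoadenylate synthetases, and IFI44L were higher in U87-MG by -3.36 and -3.29, IFI44L being above background on 2 A172 and 3 U87-MG arrays and untested without replicate 1, 2 or 4 of U87-MG. Of 22 tested cytokines and chemokines 3 were higher in A172 and 2 in U87-MG, and of the 11 on in all arrays 1 and 2, with a median of -0.89 (-0.79 to -0.16). IL6 and CSF3 were higher in U87-MG, IL6 by -2.50, whereas IL32 was higher in A172 by 3.58 by probe A_23_P15146 but not by its other probe (-0.89, adjusted p = 0.149), and IL18 was on there alone, at least 1.63-fold. CCL2, a chemokine for monocytes, was on in A172 alone with at least 1.67-fold, a limit that was 3.03 without replicate 1 and vanished without replicate 2.

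Enzymes of aldehyde and aldo-keto metabolism were higher in A172 in 5 and in U87-MG in 7 of 37 tested cases, and in 3 and 2 of the 23 on in all arrays, with a median of -0.54 (-0.42 to 0.20, positive with the E1A spots). AKR1B1, aldose reductase, stood at 8.32, 8.43, 7.06 and 7.86 in U87-MG and at 3.38, 3.08 and 2.70 in A172, a difference of -4.86. Its relative AKR1B10 was higher in U87-MG by -3.97 by probe A_23_P93641, detected on 1 A172 and 3 U87-MG arrays and untested without replicate 1, 2 or 4 of U87-MG, and by -2.31 by its other probe. ALDH7A1, an aldehyde dehydrogenase, was higher in A172 by 4.12 by probe A_23_P70231, detected on 1 of 4 U87-MG arrays, and NNMT, which methylates nicotinamide, by 3.70. GSTM3, a glutathione transferase, was on in A172 alone, at least 4.26-fold. Of 23 tested long noncoding RNAs 1 was higher in each line, both on in all arrays, as were 14 of the list, with a median of -0.42 (-0.24 to 0.31, of either sign). MEG3 was on in A172 alone by probe A_19_P00316398, at least 4.22-fold, and MIAT by probe A_19_P00316014, at least 4.06-fold, but other probes of both genes were on in both lines, with -0.50 for the brightest MEG3 probe. SNHG12 was higher in U87-MG by -2.71, as was PVT1 by probe A_19_P00321075 (-2.10), detected on 2 A172 and 3 U87-MG arrays, a call lost without most single arrays and not shared by 6 of its 7 other tested probes.

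**Figure D5:**
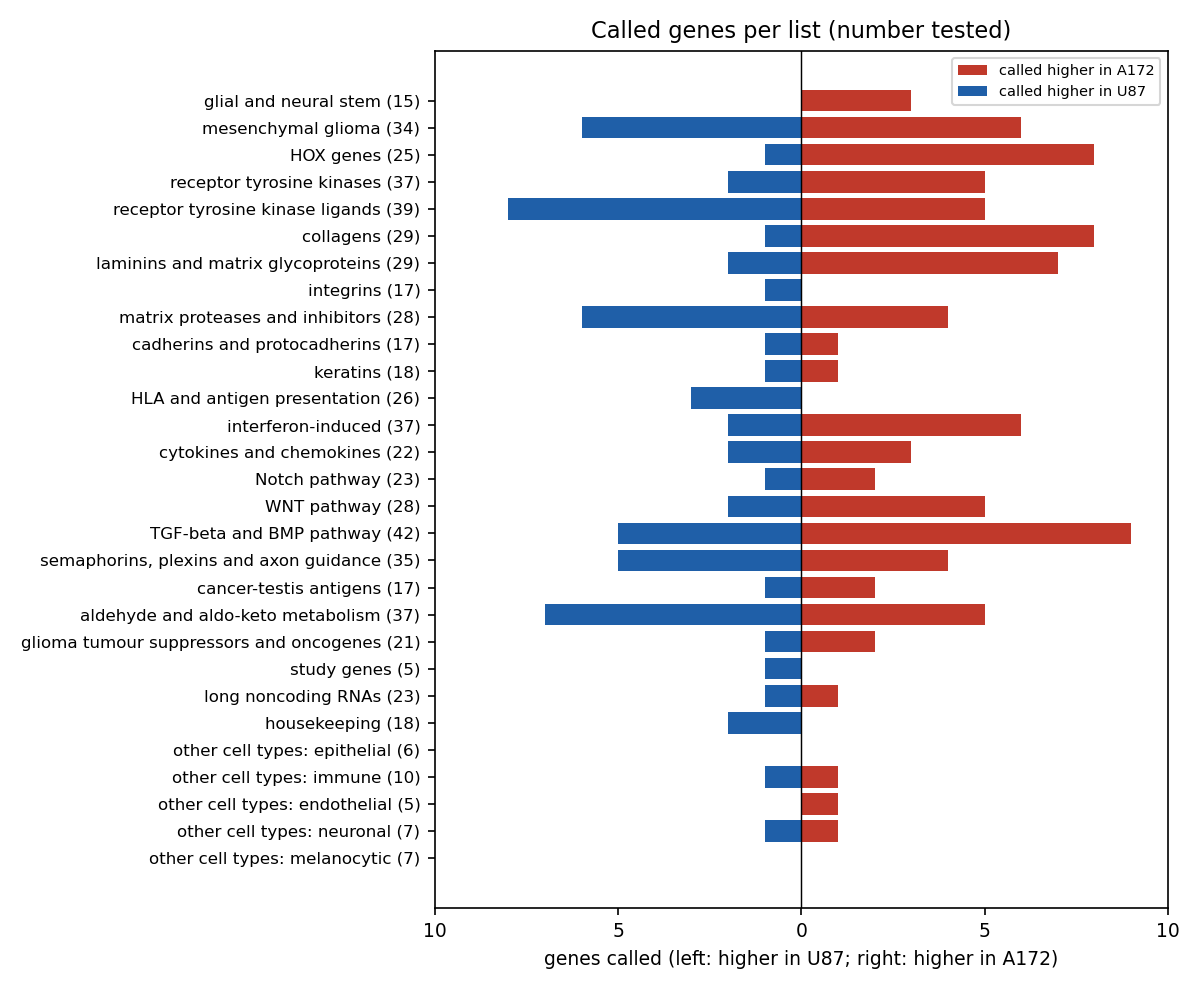
Number of genes named as higher in A172 (red, to the right) or in U87-MG (blue, to the left, named U87) in each list, with 1 probe per gene and the number of tested genes, those off in one line included, in brackets. The TGF-beta and BMP list has the longest red bar, with 9 of 42 genes, and the ligands of receptor tyrosine kinases the longest blue bar, with 8 of 39.

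The RNA that was silenced in the other arrays was on in all control arrays of both lines. CYTOR, the gene of LINC00152, stood at 2.63, 2.44 and 2.48 in A172 and at 1.94, 1.83, 1.71 and 1.82 in U87-MG, a difference of 0.70 (SE 0.26, adjusted p = 0.0748). All A172 arrays lay above all U87-MG arrays, by less than the size asked for. The difference was 1.11 with normexp and 1.43 with the E1A spots. Its close relative MIR4435-2HG differed by 0.26 to 1.19 over 3 probes. STAT3, a transcription factor that the study also examined, differed by 0.24 (adjusted p = 0.601) and 1.27 (adjusted p = 0.0375) by its probes. MALAT1, a nuclear RNA, differed by 0.26 to 1.30 over the 4 probes on in all arrays and passed the threshold with none of them, but A172 replicate 2 was lower than the others throughout, and without it 2 of these probes differed by 2.20 and 2.01 and were named, as were 4 dim ones.

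GAPDH, often taken as stable, was not equal between the lines. It stood at 5.95, 6.42 and 6.12 in A172 and at 8.70, 8.75, 9.70 and 8.72 in U87-MG, a difference of -2.80 (SE 0.34, adjusted p = 0.000513). With TFRC, the transferrin receptor, it was 1 of 2 genes higher in U87-MG among 18 housekeeping genes, while the other 16 were higher in neither line. Over the 15 on in all arrays the median was -0.51, and -0.42 to 0.26 on the other scales, positive with normexp and with the E1A spots. A probe for 28S ribosomal RNA, A_33_P3336632 of RNA28SN5, stood at 8.53, 7.89, 12.41 and 8.24 in U87-MG and at 2.47, 4.46 and 5.34 in A172, a difference of -5.18, which was -4.13 without replicate 3 of U87-MG, -4.37 without replicate 1 and -5.80 without replicate 3 of A172. Its other probes differed by -3.03, -0.61 and -0.40. The first probe and the brightness of the arrays moved with the line, and their part in the differences described was not tested.

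The E1A control spots did not all follow the brightness of the cell probes. The median signal of E1A_r60_1 was 2668, 2904 and 4645 in A172 and 3348, 3850, 7047 and 3677 in U87-MG, with overlap between the lines, whereas that of E1A_r60_3 was 166, 209 and 183 in A172 and 18.9, 19.7, 11.6 and 15.8 in U87-MG. Whether RNA for these spots was added is not given in the sources used here.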

How the data were processed

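The intensity values are the processed signals that Agilent Feature Extraction 11.5.1.1 made from the scanned arrays (design on build hg19), per the file headers. The log2 values in the series table were made by the authors from these signals by quantile normalization over the 14 arrays, as deposited, and each array's median there is 4.38. The files were joined to the samples by their labels. Here log2 processed signals had the array's 75th percentile subtracted and spots of a probe were averaged without outlier spots. Differences were tested with limma 3.58.1 in R 4.3.3 on the means of the 2 lines, with p adjusted by Benjamini and Hochberg over the tested probes. The normexp alternative used median signals, since no mean signal was in use, and an offset of 50.

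Genes were named by rule from probes with 1 gene symbol (29033 of 50599 probes), with Y-linked genes and XIST left out and 1 probe per gene: the 12 largest limits in each direction among large differences, the 10 largest named differences in each direction among probes on in all 7 arrays, list members that were large differences or among the 3 largest named differences of a list in each direction, and the study genes. Some genes of the lists are not reported here and were left out of their counts. Lists were counted by the brightest probe of each gene. Members and lists were chosen with earlier results of these data known, and the metallothionein cluster, VEGFA, further class II genes and the neighbours of CDKN2C after the values were seen.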

Additional observations from a re-analysis of the deposited data

Results flagged for a closer look

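On the 4 control arrays of U87-MG, 21 of 168 values tested lay apart from the other 3 arrays by most of the range, a pattern with a chance of about 1 in 20 for each value, and 17 of them were on replicate 3. Of these values 50 came from probes off on all 4 arrays, whose signals have no order, and without them 16 of 118 lay apart, 13 on replicate 3. On replicate 3 the signals of the control spots E1A_r60_1 (7047.091) and E1A_r60_a22 (281.729) were high, as were the levels of GAPDH (9.702), RNA28SN5 (12.4072), CD74 (2.6633), IFITM3 (2.0297), NF2 (1.4777), CCL2 (-3.2384), COL18A1 (-1.5099), L1CAM (-2.6251) and NOTCH1 (-3.3017), the last 4 of them off in U87-MG. Levels of ABL1 (0.4852), AKR1B10 (-1.9099), G0S2 (-0.0399), OASL (0.477), PLAU (0.6627) and STAT3 (0.0189) were low there. On replicate 4 HOXA9 (7.8833) was low and TGFBR2 (1.5568) and TGFBR3 (-1.2514) were high, and on replicate 1 RGS16 (-3.7662), off in U87-MG, was low.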

How the results depend on the processing

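All 164 large A172 and 84 large U87-MG differences were large with the deposited values too. With detection by positive and significant signal 31 and 10 of them remained large and 1493 probes were on in A172 alone, and on the knockdown arrays 153 in U87-MG alone. Large differences numbered 53 and 37 with normexp, 341 in A172 with the E1A spots, 87 and 26 with a common floor and 151 in U87-MG on the knockdown arrays.

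Probes named as higher in A172 and U87-MG numbered 541 and 167 with normexp, 3327 and 380 with the E1A spots, 317 and 584 among probes on in all 7 arrays, 7153 and 7130 at an adjusted p under 0.2 and a size above 0.5, 3895 and 3870 at a size of 1, and 163 and 171 when the size itself was tested (treat). Without a filter on dim probes 3690 were higher in U87-MG. DLL1 turned from 2.48 to -0.0169 with normexp.

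With 1 array left out, 4124 to 6156 probes were on in A172 alone and 85 to 186 in U87-MG alone, 158 to 207 and 85 to 170 were large, and 1279 to 1581 and 850 to 1267 were named as higher.

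Arrays of the same number in both lines had correlations of 0.0594, 0.0568 and 0.216 after the line means were removed, so the numbers do not pair them. With the replicate number as a block 1439 and 1280 probes were named.

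Of 901 alternatives for the limits of named genes 796 left a limit of at least 4-fold, 48 a smaller one and 57 lost the pattern, and sizes moved within these. Of 2967 alternatives for differences 2702 left the call and its direction, 153 ended a call, 8 made one and 103 gave no value. The remaining 1, DLL1 with normexp, changed its sign and lost its call. Line and slide cannot be told apart under any setting.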
